A study of Mus musculus with 15 samples.

Results

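A set of 10 genes of apolipoproteins and chylomicron assembly is described here in the cecum of mice whose gut microbiome had been depleted with antibiotics. They are Apoa1, Apoa4, Apob, Apoc2, Apoc3 and Apoe, which encode apolipoproteins, Mttp, Sar1b and Mogat2, which serve the assembly and export of chylomicrons, and Apobec1, which edits the Apob mRNA. They were chosen by gene symbol, and all 10 were found in the expression table among 45804 genes with a unique symbol. Antibiotic-induced microbiome depletion (AIMD) was given to 7 mice, by oral gavage 2 times a day for 30 days. The antibiotics were vancomycin, ampicillin, neomycin and metronidazole, and the antifungal amphotericin B was given with them. The 8 vehicle-treated mice were gavaged with water on the same schedule. All were C57BL/6 males that the labels give as wild type (WT) and 20 weeks old. The emptied cecum was sequenced whole, so each value is 1 mouse and mixes every cell type of the cecal wall.

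Apolipoproteins are the protein parts of the particles that carry fat in lymph and blood. In an absorptive cell of the gut, fatty acids and monoacylglycerol are joined again into triglyceride, which the protein made from Mttp loads onto newly made apolipoprotein B in the endoplasmic reticulum. The particle then leaves in large coated vesicles whose budding needs Sar1b, and apolipoproteins A-I, A-IV and C are added to it. This is known mainly as work of the small intestine, whereas the cecum lies just beyond the ileum and absorbs little dietary fat.

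Expression is given as FPKM, which corrects the number of reads for gene length and depth, so that levels can be compared between genes. Over all 15 mice Sar1b had the highest median level of the 10 genes, at 142, followed by Apobec1 at 38.2, Apoe at 22.3, Apob at 14.7, Apoc2 at 10.2 and Apoa1 at 9.89. The lowest were Mogat2 at 2.96, Apoa4 at 1.60, Apoc3 at 0.588 and Mttp at 0.484. Only Sar1b lay clear of its neighbour in this order, since the ranges of all other neighbours overlapped.

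The question of the comparison was how AIMD changed cecal gene expression. Apob, Apobec1 and Apoa4 were higher in AIMD mice, none of the 10 genes was lower, and 7 did not pass the test. The test was limma on log2(FPKM + 0.5), with Benjamini–Hochberg adjustment over 11983 genes and calls made at an adjusted p under 0.05. Of all genes tested, 19.4% were called higher and 16.7% lower, and the 3 of 10 called higher here are to be read beside that background. The median log2 fold change was 0.21 over the 10 genes and 0.01 over all genes tested.

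**Figure D1:**
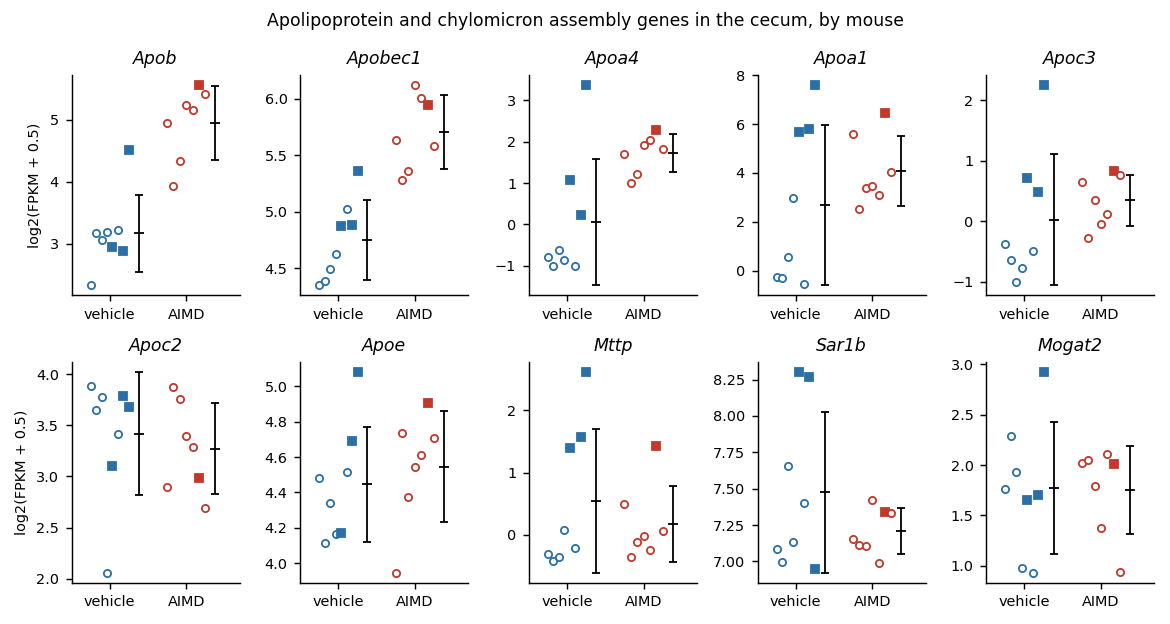
Expression of the 10 genes as log2(FPKM + 0.5) in each of 8 vehicle-treated (blue) and 7 AIMD (red) mice, with the group mean and SD in black; each panel has its own vertical axis, and filled squares mark the 4 mice with Fabp6 over 100 FPKM. Apob, Apobec1 and Apoa4 sit higher in AIMD mice, and Apoa1, Apoc3 and Mttp are highest in squares.

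Apob encodes apolipoprotein B, the structural protein that stays with 1 particle from assembly to uptake. It lies on the plus strand of chromosome 12, from 7977648 to 8016835 in GRCm38. Its lowest, median and highest FPKM were 14.7, 35.2 and 47.0 in AIMD mice and 4.50, 8.17 and 22.4 in vehicle-treated mice. The groups overlapped through 1 vehicle-treated mouse, replicate 8, and 5 of 7 AIMD mice stood above it. All the other vehicle-treated mice, at 4.50 to 8.82, were below the lowest AIMD mouse. AIMD mice averaged 32.4 ± 11.7 (SD, n = 7), which is 3.47 times the vehicle mean of 9.34 ± 5.44 (SD, n = 8). The log2 fold change was 1.78 (standard error 0.28, 95% interval 1.19 to 2.37, limma adjusted p = 0.000173). An exact permutation test over the mice, two-sided, gave p = 0.000622, where the smallest p possible is 0.000155. At 461 to 8603 reads per mouse Apob was among the well counted of the 10 genes, and none of its 50-base windows occurs in a transcript of another gene.

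Apobec1 encodes the cytidine deaminase that changes a glutamine codon of the Apob mRNA into a stop codon, so that the short apolipoprotein B48 is made. Its place is chromosome 6, minus strand, 122577792 to 122602444. The site it edits is shown here because the mRNA levels of both Apobec1 and Apob were higher in AIMD mice. It was read from the GENCODE M21 transcript of 13934 bases and lies in coding exon 26 of 29, 7467 bases long, at chr12:8008039-8008083 on the plus strand. The first capital is the edited base, in codon 2179 of 4505, and the other capitals are the 9-base mooring sequence that follows after 4 bases in between and holds the editing complex.
Apob editing site: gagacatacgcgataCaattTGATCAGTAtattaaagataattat
Editing itself was not measured, because the deposited values count reads per gene and carry no base calls.

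The FPKM of Apobec1 was 38.2, 49.3 and 69.2 (lowest, median and highest) in AIMD mice and 19.9, 26.5 and 40.6 in vehicle-treated mice. The highest vehicle-treated mouse, replicate 8 again, was below 6 of 7 AIMD mice, and 7 of 8 vehicle-treated mice were below the lowest AIMD mouse. The mean was 52.8 ± 12.0 (SD, n = 7) against 27.1 ± 7.04 (SD, n = 8), a ratio of 1.95. On the log2 scale the difference was 0.96 with a standard error of 0.17 (limma adjusted p = 0.000471, exact permutation p = 0.000466). Both Apob and Apobec1 kept this call under every alternative computed. A complete separation of the groups, with AIMD mice higher, was seen in 5.26% of all genes tested and in 0 of these 10.

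The partners of Apobec1 did not move as 1 group. A1cf, which encodes the RNA-binding cofactor of the editing complex, rose from a median FPKM of 2.73 in vehicle-treated mice to 4.28 in AIMD mice, and its groups did not overlap (log2 fold change 0.74, limma adjusted p = 0.000972). Rbm47, a second RNA-binding cofactor, had medians of 41.9 and 35.7 in AIMD and vehicle-treated mice and was not called (log2 fold change 0.13, limma adjusted p = 0.601). Celf2, an RNA-binding protein of many tissues, fell by 0.74 on the log2 scale (limma adjusted p = 0.0118). Apobec2, a relative of Apobec1 known from muscle, fell by 0.73 (limma adjusted p = 0.0387). Of 8 genes listed for editing and its family, 7 were tested, 1 was higher and 2 were lower, beside 19.4% and 16.7% of all genes. Without 4 mice described below 1 was higher and 1 lower.

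Apoa1, Apoc3 and Apoa4 lie beside each other on chromosome 9, from 46228580 to 46230466, from 46232933 to 46235636 and from 46240696 to 46243459, with Apoc3 on the minus strand and the others on the plus strand. Apoa4 encodes apolipoprotein A-IV, which gut cells secrete with chylomicrons after a meal. In AIMD mice its FPKM ran from 1.52 to 4.40 with a median of 3.06, and every AIMD mouse had 33 reads or more on it. Among vehicle-treated mice 5 were at 0 to 0.149 FPKM, with 0 to 2 reads each, and the other 3 were at 0.673, 1.60 and 9.95. The 2 mice listed at 0 could have held up to 0.122 and 0.178 FPKM at a floor of 3 reads. The mice at 0.673, 1.60 and 9.95 FPKM were replicates 7, 5 and 8, and only replicates 5 and 8 reached the AIMD range. On the log2 scale Apoa4 was higher by 1.66 (standard error 0.52, 95% interval 0.56 to 2.77, limma adjusted p = 0.0203, exact permutation p = 0.0172). On this scale, with 0.5 FPKM added, the change of such a low gene is understated, and it was 2.79 with a pseudocount of 0.1 and 3.94 with limma voom on the recovered reads. The call was lost with the exact rank-sum test (adjusted p = 0.0574) and with no filter on low values (limma adjusted p = 0.0511). Of the 50-base windows of Apoa4 60.9% also occur in the antisense genes Gm47528 and Gm10680. The library kit marks strand, but whether the authors counted by strand is not given in the sources used here, and Gm10680 was at 0 in 13 of 15 mice.

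Apoa1 encodes apolipoprotein A-I, the main protein of high-density lipoprotein and a part of new chylomicrons. On the log2 scale it had the largest standard error of the 10 genes. Its lowest, median and highest FPKM were 5.19, 10.5 and 87.9 in AIMD mice and 0.174, 4.20 and 196 in vehicle-treated mice. Vehicle-treated replicates 1, 2, 3 and 6 were at 0.174 to 0.983, below every AIMD mouse, replicate 4 was at 7.42, and replicates 5, 7 and 8 were at 51.1, 54.9 and 196. The difference of 1.38 on the log2 scale was not called (standard error 1.16, 95% interval -1.06 to 3.83, limma adjusted p = 0.371, exact permutation p = 0.317). On the linear scale the means ran the other way, with 26.5 ± 30.8 (SD, n = 7) for AIMD and 38.9 ± 67.5 (SD, n = 8) for vehicle.

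Apoc3 encodes apolipoprotein C-III, known to slow the clearance of triglyceride-rich particles. It was hardly expressed, with 4 to 19 reads in AIMD mice and 0 to 19 in vehicle-treated mice, and 1 vehicle-treated mouse was listed at 0 with a floor of 0.399 FPKM. Its FPKM was 0.329 to 1.28 in AIMD mice and 0 to 4.28 in vehicle-treated mice. Again 5 of 8 vehicle-treated mice lay below every AIMD mouse and replicate 8 lay above all of them. The log2 fold change of 0.32 (standard error 0.38) was not called (limma adjusted p = 0.548, exact permutation p = 0.497).

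The 3 genes of this cluster were high in the same mice, and these mice also stood apart in Fabp6, the bile acid binding protein that marks the ileum. Fabp6 was at 1041, 1062 and 1718 FPKM in vehicle-treated replicates 5, 7 and 8 and at 225 in AIMD replicate 6, against 1.42 to 69.8 in the other 11 mice. Without these 4 mice Apoa1 ran from 5.19 to 48.0 FPKM in 6 AIMD mice and from 0.174 to 7.42 in 5 vehicle-treated mice, a log2 fold difference of 3.19 (standard error 0.63). Apoc3 then differed by 0.91 (standard error 0.19), with no overlap at 0.329 to 1.20 against 0 to 0.268. Apoa4 differed by 2.47 (standard error 0.19), also with no overlap, at 1.52 to 3.65 against 0 to 0.149. Without them 5 of the 10 genes, the 3 of this cluster with Apob and Apobec1, were called higher, beside 16.1% of all genes. The vehicle-treated mice left out hold the 3 highest Apoa1, Apoc3 and Apoa4 levels of their group, so this count and these differences are not independent of those levels, and it was chosen after the data were seen. Apob and Apobec1 hardly moved, with log2 fold differences of 1.85 (standard error 0.26) and 1.09 (standard error 0.18).

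**Figure D2:**
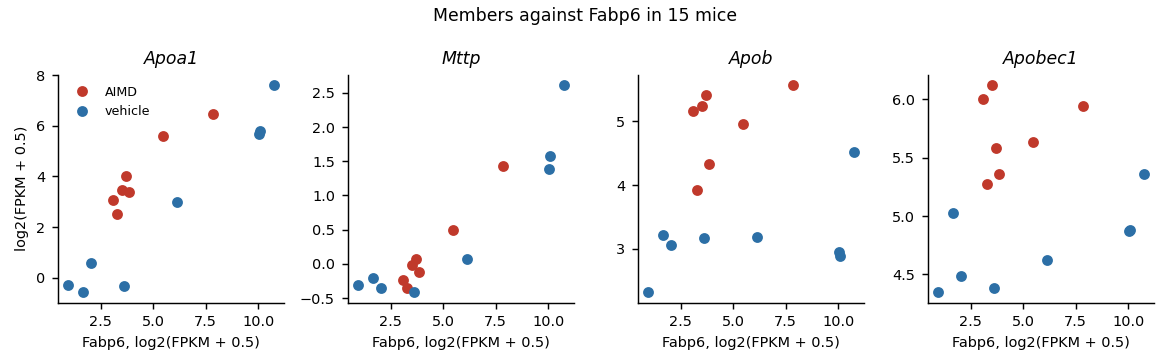
Apoa1, Mttp, Apob and Apobec1 against Fabp6 in each mouse, all as log2(FPKM + 0.5), with AIMD mice in red and vehicle-treated mice in blue. Apoa1 and Mttp rise with Fabp6 in both groups. At like Fabp6 Apob and Apobec1 are higher in AIMD mice, and so is Apoa1. For example, Apoa1 was 5.19 FPKM in AIMD replicate 2 and 0.299 in vehicle-treated replicate 2, with Fabp6 at 9.22 and 11.7.

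Small intestinal absorptive cell markers also differed between mice. The summed FPKM of 14 such markers was 269 to 687 in AIMD mice and 101 to 2039 in vehicle-treated mice, with Fabp6 alone giving 1718 of the highest sum. Without Fabp6 the other 13 summed to 257 to 462 in AIMD mice and 79.7 to 321 in vehicle-treated mice, and to 160 to 462 in the 4 mice against 79.7 to 389 in the other 11. Sucrase-isomaltase, Sis, was at 2.33 to 4.62 FPKM in the 4 mice and at 0 to 0.552 in the others. Of 10 markers tested 3 were higher in AIMD mice over all mice and 6 without the 4 mice, none lower. The shares of all genes called higher were 19.4% and 16.1%. The 4 mice were left out for high Fabp6, itself 1 of these markers, so the second count is not independent of their levels. The ileal bile acid transporter Slc10a2 had a median FPKM of 86.8 in AIMD and 8.16 in vehicle-treated mice (log2 fold change 3.63, limma adjusted p = 1.84e-07). Rbp2, a retinol-binding protein of absorptive cells, had medians of 175 and 67.2 (log2 fold change 1.26, limma adjusted p = 0.000298). These genes gave much of the sum without Fabp6, whose median was 344 in AIMD and 130 in vehicle-treated mice. Over all mice 7 tested markers were not called. Their log2 fold changes ran from -1.27 for Fabp6 (limma adjusted p = 0.522) to 1.49 for Slc15a1 (limma adjusted p = 0.0786). In sequencing of whole cecum, more cells of a type and more RNA per cell cannot be told apart, and the part of these markers in the differences was not tested.

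Markers of hepatocytes, the other main source of these apolipoproteins, were mostly at or near 0. Of 8 such markers Alb had a median of 0.111 FPKM in AIMD and 0.0422 in vehicle-treated mice, Fgb, Fgg, Ahsg and Serpina1a had a median of 0 in both groups, and 3 of the 8 were listed at 0 in every mouse. Ttr and Tat were the exceptions. Ttr had medians of 22.2 FPKM in AIMD and 22.3 in vehicle-treated mice (log2 fold change 0.21, limma adjusted p = 0.645), and Tat had 5.38 and 2.38 and was called higher (log2 fold change 1.04, limma adjusted p = 0.00011). Their part in the apolipoprotein levels was not tested. Markers of large intestinal absorptive cells, led by the carbonic anhydrase Car1, summed to 28644 to 41404 FPKM in AIMD and 25249 to 33379 in vehicle-treated mice. Without Car1 the other 9 summed to 7686 to 14145 and 5097 to 8684. Of these markers 4 of 10 tested were higher in AIMD mice, led by Ceacam20 (log2 fold change 1.33, limma adjusted p = 0.000243) and Saa1 (log2 fold change 1.17, limma adjusted p = 0.00288), and the water channel Aqp8 was lower (log2 fold change -0.93, limma adjusted p = 0.00109). General epithelial markers were higher in 3 of 7 tested, Krt8, Vil1 and Cdh17, and lower in 1. Both lists are to be read beside the 19.4% of all genes called higher and 16.7% called lower. Without the 4 mice 3 and 1 of the large intestinal markers and 0 and 1 of the epithelial markers were higher and lower. Their part in the rise of Apob, Apobec1 and Apoa4 was not tested.

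Apoc2 and Apoe lie in another apolipoprotein cluster, on chromosome 7 and its minus strand, from 19671579 to 19677941 and from 19696109 to 19699188. Apoc2 encodes apolipoprotein C-II, the activator of lipoprotein lipase. Its FPKM was 5.96, 9.27 and 14.1 (lowest, median and highest) in AIMD mice and 3.66, 12.2 and 14.3 in vehicle-treated mice. The ranges nearly coincided, and the log2 fold change of -0.15 (standard error 0.25, 95% interval -0.67 to 0.38) was not called (limma adjusted p = 0.671). A share of 78.3% of its windows also occurs in Gm44805, a transcript that runs through Apoc4 and Apoc2, so reads of these genes are hard to part.

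Apoe encodes apolipoprotein E, the ligand by which receptors take up remnant particles, and macrophages are a known source of it. Its FPKM was 14.9, 23.9 and 29.5 in AIMD mice and 16.8, 20.8 and 33.4 in vehicle-treated mice. With means of 23.3 ± 4.68 (SD, n = 7) for AIMD and 21.8 ± 5.52 (SD, n = 8) for vehicle, the groups differed by 0.10 on the log2 scale (standard error 0.16, 95% interval -0.24 to 0.44, limma adjusted p = 0.656). Of all genes tested, the complement gene C1qb, a macrophage marker, followed Apoe most closely within groups. Summed macrophage markers were 77.1 to 247 FPKM in AIMD mice and 53.8 to 101 in vehicle-treated mice, and Lyz2, the lysozyme gene (log2 fold change 1.24, limma adjusted p = 0.00199), carried most of the sum. Without it the other 9 markers summed to 23.9 to 47.7 and 20.8 to 46.0 FPKM. Of the 10 macrophage markers 9 were tested, and 4 were called higher and none lower, beside 19.4% and 16.7% of all genes. The mannose receptor gene Mrc1 had a log2 fold change of -0.69 and missed the threshold (limma adjusted p = 0.0515).

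Of 10 other apolipoprotein genes 3 were tested and none was called, beside 19.4% of all genes called higher and 16.7% lower. Clu, also known as apolipoprotein J, had median FPKM of 11.8 in AIMD and 16.8 in vehicle-treated mice (log2 fold change -0.31, limma adjusted p = 0.358). Apoa2 had medians of 3.20 and 3.94 (limma adjusted p = 0.361), and Apod had medians of 0.695 and 0.591 (limma adjusted p = 0.603). Apoa5, Apoc1, Apoc4, Apof, Apoh, Apom and Apon did not reach the filter on low values, the highest value among them being 1.44 FPKM for Apoc1 in a vehicle-treated mouse. Apoa5, the neighbour of Apoa4, had at most 1 read in any mouse.

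Mttp encodes the large subunit of the microsomal triglyceride transfer protein, without which apolipoprotein B is degraded. It is on chromosome 3, minus strand, 138089854 to 138144968, and was the least expressed of the 10 genes. Its FPKM was 0.282, 0.484 and 2.18 (lowest, median and highest) in AIMD mice and 0.250, 0.457 and 5.63 in vehicle-treated mice. The 4 highest values, 2.12, 2.18, 2.49 and 5.63, belonged to the 4 mice with high Fabp6, and the other 11 mice lay at 0.250 to 0.913. No difference was called, with a log2 fold change of -0.37 over all mice (standard error 0.43, limma adjusted p = 0.531) and 0.21 without the 4 mice (standard error 0.16, limma adjusted p = 0.329). With a pseudocount of 0.1 in place of 0.5 the log2 fold change over all mice was -0.41 (standard error 0.59). Trmt10a and Gm43691 overlap Mttp and share 7.23% of its windows.

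Sar1b encodes the small GTPase that starts the coat of the vesicles carrying chylomicrons out of the endoplasmic reticulum. It lies on the plus strand of chromosome 11, from 51763687 to 51791925. Its FPKM was 127, 142 and 171 (lowest, median and highest) in AIMD mice and 123, 154 and 315 in vehicle-treated mice. Vehicle-treated replicates 5 and 7, both with high Fabp6, stood at 315 and 308, but replicate 8, with the highest Fabp6, was the lowest of all at 123. The log2 fold change was -0.27 (standard error 0.20, 95% interval -0.70 to 0.16, limma adjusted p = 0.323). Sar1a, its close relative, had medians of 37.8 in AIMD and 34.2 in vehicle-treated mice (log2 fold change 0.07, limma adjusted p = 0.641), and no 50-base window is shared between them.

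Mogat2 encodes the monoacylglycerol acyltransferase that begins the rebuilding of triglyceride in absorptive cells. It is on chromosome 7, minus strand, 99219084 to 99238619. Its FPKM was 1.42, 3.53 and 3.82 in AIMD mice and 1.41, 2.82 and 7.10 in vehicle-treated mice. The groups overlapped fully, and the log2 fold change of -0.02 (standard error 0.26, 95% interval -0.57 to 0.54, limma adjusted p = 0.97) was the smallest of the 10 genes.

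In ratios within a mouse most scaling between mice cancels, and 6 were compared by exact permutation tests with adjustment over the 6. Each level had 0.5 FPKM added before the log2. The median levels of Mttp (0.484) and Apoc3 (0.588) were near that constant. The size of ratios with low genes, Apoa4 among them, therefore depends in part on it. The log2 ratio of Mttp to Apob was -4.76 ± 0.55 (SD, n = 7) under AIMD and -2.61 ± 0.91 (SD, n = 8) under vehicle. It differed by -2.15, and the groups did not overlap (exact p = 0.000155, the smallest possible, adjusted p = 0.000932). The Apobec1 to Apob ratio was 0.76 ± 0.40 under AIMD and 1.59 ± 0.42 under vehicle. This ratio differed by -0.82 (exact p = 0.00295, adjusted p = 0.00886), so Apob mRNA rose by more than Apobec1 mRNA. The ratios of Apoa4 to Apoa1 (0.28), Apoc3 to Apoc2 (0.46), Sar1b to Sar1a (-0.34) and Apoa4 to Apob (-0.12) did not differ beyond the spread between mice, with exact adjusted p from 0.535 to 0.798.

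Of 20 genes of fatty acid uptake and triglyceride resynthesis 18 were tested, with 4 higher, 5 lower and a median log2 fold change of 0.04. Of all genes, 19.4% were called higher and 16.7% lower. Lpin3, a phosphatidate phosphatase that makes diacylglycerol, rose from a median of 2.69 to 8.67 FPKM (log2 fold change 1.44, limma adjusted p = 7.78e-05). Fabp2, which binds fatty acids in absorptive cells, had medians of 5311 FPKM in vehicle-treated and 8896 in AIMD mice (log2 fold change 0.77, limma adjusted p = 0.02). Agpat2, which adds the second acyl chain to glycerol phosphate, rose by 0.77 (limma adjusted p = 0.00316).

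Uptake genes were among those that fell. Slc27a4, the fatty acid transport protein FATP4, fell from a median of 86.3 FPKM in vehicle-treated mice to 44.5 in AIMD mice, and its groups did not overlap (log2 fold change -1.05, limma adjusted p = 6e-05). Agpat9, the older symbol of the acyltransferase gene Gpat3, fell by 0.71 (limma adjusted p = 0.000886). Cd36, the fatty acid translocase, fell by 0.64 (limma adjusted p = 0.0455). Without the 4 mice 4 genes of this list were higher and 4 lower.

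Of 25 tested genes of lipidation and vesicle export 8 were higher, 3 were lower and 14 were not called, beside 19.4% and 16.7% of all genes called higher and lower, with a median log2 fold change of 0.15. Mia2, the gene of the large-cargo receptor TALI at endoplasmic reticulum exit sites, had 1.25 to 7.18 FPKM in AIMD mice and 0 to 0.726 in vehicle-treated mice (log2 fold change 2.36, standard error 0.28, limma adjusted p = 1.47e-05). The annotation used here joins Ctage5 to Mia2, whereas the deposited table lists both, so how reads were divided between them is uncertain. Sec24c, a cargo adaptor of the vesicle coat, rose by 0.97 (limma adjusted p = 0.000208), and Gosr2, a membrane fusion protein of the Golgi, rose by 0.92 (limma adjusted p = 6.74e-05). The coat gene Sec31a fell by 0.58 (limma adjusted p = 0.00502), Sec24b fell by 0.49 (limma adjusted p = 0.027), and Klhl12, the ubiquitin ligase adaptor that enlarges the coat, fell by 0.38 (limma adjusted p = 0.00917). Without the 4 mice the list had 8 higher and 2 lower.

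**Figure D3:**
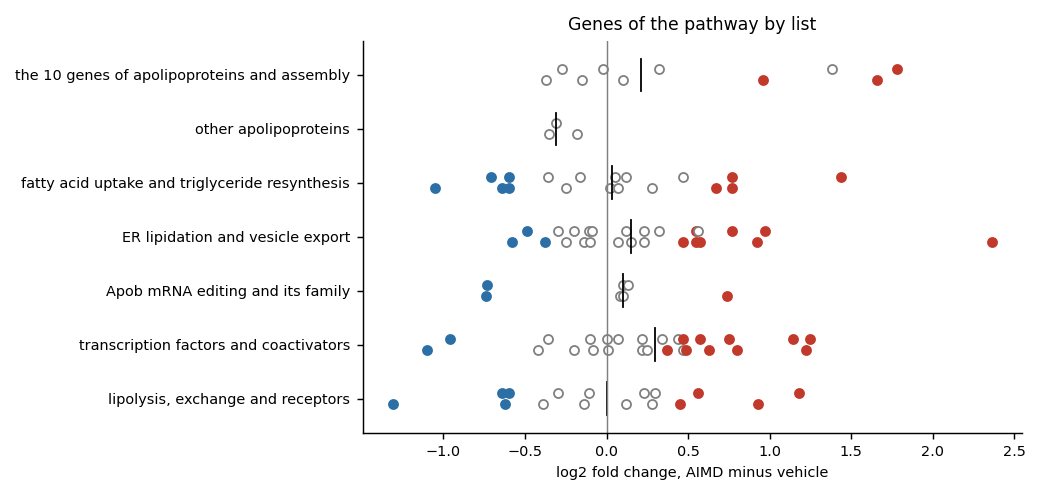
Log2 fold change of each tested gene in 7 lists, with genes called higher in AIMD mice in red, called lower in blue and not called as open circles; black bars are list medians. The vertical bars lie between -0.31 and 0.29, close to the 0.01 of all genes, and each list except the other apolipoproteins holds called genes.

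Downstream of secretion the list of lipolysis, exchange and receptor genes had 4 higher and 4 lower of 16 tested, with or without the 4 mice. Of all genes tested, 19.4% were called higher and 16.7% lower over all mice. Lpl, the lipase that frees fatty acids from chylomicrons, had 4.00 to 6.69 FPKM in AIMD mice and 7.82 to 17.3 in vehicle-treated mice (log2 fold change -1.31, limma adjusted p = 1.25e-05). Angptl4, a secreted inhibitor of that lipase, fell by 0.64 (limma adjusted p = 0.0396), and Pltp, the phospholipid transfer protein, fell by 0.62 (limma adjusted p = 0.0026). Vldlr, a receptor for triglyceride-rich particles, rose by 0.93 (limma adjusted p = 0.00141), and Mylip, a ubiquitin ligase that acts on this receptor, rose by 0.56 (limma adjusted p = 0.0351). Of 5 adipocyte markers 2 were tested. Adipoq was lower, at a median of 0.0629 FPKM in AIMD and 1.97 in vehicle-treated mice (limma adjusted p = 0.0214). Cfd was not called (limma adjusted p = 0.0989), and without the 4 mice no adipocyte marker was called. The part of these markers in the fall of Lpl was not tested.

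Transcription factors known to act on apolipoprotein genes were called higher in 10 of 26 tested cases and lower in 2, with a median log2 fold change of 0.29, beside 19.4% and 16.7% of all genes. Whether the list differs from other genes was not tested. Hnf4a, a nuclear receptor that binds many apolipoprotein promoters, had 118 to 188 FPKM in AIMD mice and 43.9 to 85.9 in vehicle-treated mice, with no overlap (log2 fold change 1.25, limma adjusted p = 4.64e-05). Its relative Hnf4g rose by 1.14, also with no overlap (limma adjusted p = 0.000286). Creb3l3, a membrane-bound factor known for control of Apoa4 and other triglyceride genes, had 13.9 to 36.0 FPKM against 4.44 to 28.3 (log2 fold change 1.22, limma adjusted p = 0.00758). Foxa2 fell by 1.10 (limma adjusted p = 0.00473) and Nr2f2, a nuclear receptor that can compete with HNF4A for its sites, fell by 0.96 (limma adjusted p = 0.0043). Without the 4 mice 7 were higher and 2 lower.

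Promoter sequence was looked at for the 3 genes called higher, because they were called together with Hnf4a. RefSeq promoters on GRCm38.p6, from 250 bases before to 50 bases after a start, were at hand for 8 of the 10 genes, without Apoc3 and Mogat2. The spelling CAAAGTNCA of the HNF4 motif, searched on both strands, was in the Apoa4 and Apobec1 promoters and in 1.41% of all 32851 promoters. The spelling CAAAGGTCA was in none of the 10 genes and in 0.478% of all promoters. Another spelling, GGTCCAAAG, was added after the Apob promoter had been read, and it was in Apob and in 0.216% of all promoters. The TATA box letters TATAAA were in the Apob, Apobec1 and Apoe promoters and in 13.6% of all. The bases that lie before the annotated GENCODE gene are given here 5′ to 3′ on the strand of the gene, with every match in capitals. They stand at chr9:46240594-46240695 on the plus strand for Apoa4, chr12:7977427-7977647 on the plus strand for Apob and chr6:122602445-122602694 on the minus strand for Apobec1.
Apoa4 promoter: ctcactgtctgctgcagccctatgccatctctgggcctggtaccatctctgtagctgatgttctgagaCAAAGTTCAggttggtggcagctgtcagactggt
Apob promoter: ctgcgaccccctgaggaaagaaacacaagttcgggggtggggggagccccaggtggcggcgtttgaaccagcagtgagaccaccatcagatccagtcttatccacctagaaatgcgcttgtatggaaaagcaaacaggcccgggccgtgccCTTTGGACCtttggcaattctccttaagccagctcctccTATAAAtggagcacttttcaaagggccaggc
Apobec1 promoter: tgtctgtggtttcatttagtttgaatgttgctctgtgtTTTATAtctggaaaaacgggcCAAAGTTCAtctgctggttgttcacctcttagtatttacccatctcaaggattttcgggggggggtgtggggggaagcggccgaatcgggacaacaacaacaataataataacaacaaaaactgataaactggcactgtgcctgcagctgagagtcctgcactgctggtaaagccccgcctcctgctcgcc
Apoa4 and Apobec1 hold the same 9 letters, 182 and 191 bases before the RefSeq start. The Apoa4 stretch shown ends 149 bases before that start, because the GENCODE gene begins there. The Apob and Apobec1 stretches end 30 bases and 1 base before theirs. A match of letters is a description and says nothing of binding, which was not measured.

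Within groups the 10 genes fell into sets that varied together. After each gene's log2 values were centred on its group mean, Pearson r over 15 mice was 0.83 to 0.92 among the chromosome 9 genes Apoa1, Apoc3 and Apoa4, and 0.88 to 0.96 between them and Mttp, which lies on chromosome 3. With Fabp6 r was 0.97 for Apoa1, 0.93 for Mttp, 0.79 for Apoc3 and 0.75 for Apoa4. Without the 4 mice r among the chromosome 9 genes was 0.19 to 0.26. The 5 vehicle-treated mice left had 0 to 2 reads each on Apoa4 and on Apoc3. At such counts noise lowers r, so these values cannot show whether the likeness rested on the 4 mice. Apoa1 and Mttp were still alike over the other 11 mice, at 0.86.

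**Figure D4:**
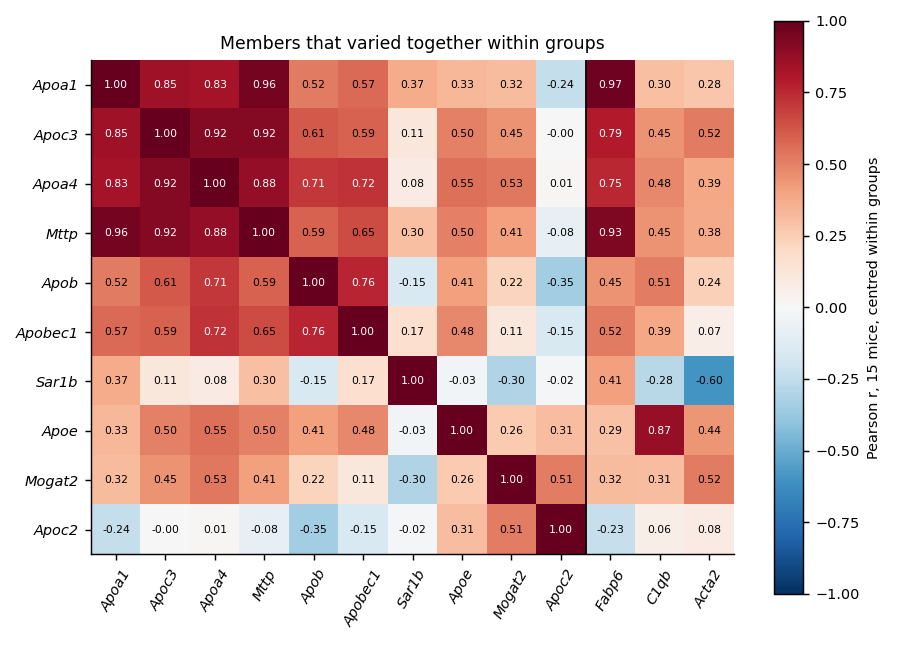
Pearson r between the 10 genes, and with Fabp6, the macrophage marker C1qb and the smooth muscle marker Acta2, over 15 mice after centring log2 values within groups; red is positive and blue negative. Apoa1, Apoc3, Apoa4 and Mttp form a block with Fabp6, and Apob and Apobec1 reach 0.76 with each other.

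Apob and Apobec1 followed each other with r of 0.76 over 15 mice and 0.69 over the 11, and Apobec1 followed Creb3l3 at 0.85 and 0.78. Apoc2 and Apoe, neighbours on chromosome 7, had r of 0.31 in both sets of mice. Apoc2 ran against Apoa1 in the 11 mice, at -0.83, but at -0.24 over all 15. These values share libraries and depth and are given as descriptions.

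The genes most like each of the 10 in this measure differed between them. For Apoa1 they included 2010106E10Rik and Fabp6, each at 0.97, and for Mttp they included the amino acid transporters Slc7a9 (0.99) and Slc6a19 (0.98). Apoa4 and Apoc3 had each other or Agtr1a among the first 3 at 0.92 to 0.93. Apob was most like Slc22a23 at 0.96 and the mucin gene Muc3 at 0.95, and Apobec1 was most like Phlpp2 and Daam1, both at 0.94. Sar1b had Lypla1, Ube2d3 and Matr3 at 0.97. Apoe had C1qb at 0.87, Apoc2 had Chpf and Prap1 at 0.89, and Mogat2 had D17H6S53E at 0.91.

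Time of sacrifice, a factor in the authors' own tests, is not in the labels. An axis was drawn from clock genes centred within each group, and it held 91.1% of their variance within groups. It put AIMD replicates 1 to 3 with vehicle-treated replicates 1 to 4. On its other side were AIMD replicates 4 to 7 with vehicle-treated replicates 5 to 8. The centring leaves mice of each group on both sides, and clock gene differences between the groups do not enter the axis. Apob was higher in AIMD mice within each set, by 1.47 (standard error 0.27, exact permutation p = 0.0286) and 1.95 (standard error 0.32, exact permutation p = 0.0286), as was Apobec1, by 0.96 and 0.88 (exact permutation p = 0.0286 in each, the smallest that either set allows). Apoa4 differed by 2.13 in the first set (exact permutation p = 0.0286) and by 1.10 in the second (exact permutation p = 0.314), and Apoa1 by 3.08 and -0.38 (exact permutation p = 0.0857 and 0.943). All 4 mice with high Fabp6 are in the second set, which also holds 4 mice with low Fabp6. Among these, vehicle-treated replicate 6 had an Apoa1 of 0.174 FPKM and an Apoa4 of 0, like the vehicle-treated mice of the first set other than replicate 4. Fabp6 and the clock-gene axis were also used as covariates, each centred within groups. Neither could therefore change the Apoa1 difference of 1.38, only its standard error. With Fabp6, added after the data were seen, the standard error was 0.31 (limma adjusted p = 0.0024). With the clock-gene axis it was 0.99 (limma adjusted p = 0.273). The Fabp6 difference between AIMD and vehicle-treated mice was thus not adjusted for. The difference between the sets was not tested.

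Depth was 8679678 to 18108588 reads on genes in AIMD mice and 4372419 to 14405939 in vehicle-treated mice, recovered from the steps of the FPKM values. Vehicle-treated replicate 8, the highest of its group in 8 of the 10 genes, was the least deep. It also had the most Acta2, a smooth muscle gene, at 622 FPKM. Acta2 in vehicle-treated mice had a median of 189 and a lowest value of 81.1, and AIMD mice were at 33.2 to 143. Without vehicle-treated replicate 8 Apob differed by 1.97, Apobec1 by 1.04 and Apoa4 by 2.14 on the log2 scale. Enteric glial markers were lower in AIMD mice in 3 of 3 tested, beside 16.7% of all genes called lower. The part of these markers in the differences was not tested.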

How the data were processed

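Cecal RNA of 7 AIMD and 8 vehicle-treated mice was read in 50-base single reads from stranded mRNA libraries. Per the submitters' processing notes and the paper's methods, the authors mapped reads to GRCm38 with STAR, counted them with featureCounts and deposited FPKM by gene symbol, 1 column per mouse. How counts became FPKM is not given in the sources used here. Of 45808 rows, 4 with a repeated symbol were left out. FPKM steps gave whole reads for 24278 of 24279 genes above 0 (within 0.02 reads), and low counts limit the precision of low genes.

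Median-of-ratios size factors (1.01 in every mouse) were divided out, and log2 was taken after 0.5 had been added. Genes reaching an FPKM of 0.5 in 7 mice or more were tested with limma 3.58.1 (lmFit and eBayes with trend, R 4.3.3), two-sided, with Benjamini–Hochberg adjustment. Single genes and ratios also had exact permutation tests over all 6435 divisions into 7 and 8 mice. The p-values measure the spread between mice. The genes and lists were chosen with earlier results of these data known. All 10 genes and all other apolipoproteins are named. In other lists up to 3 called genes with the largest rise and 3 with the largest fall are named. To these come a few markers of a cell type, the genes of the ratios and the 3 most alike genes. Slc6a19, Muc3 and other genes outside the lists come from the last part. A few genes that the rule picks are not reported here but enter the counts. Sequences are from RefSeq (GRCm38.p6) and GENCODE M21. The methods were tested on simulated data. Alternatives were other scalings, pseudocounts, filters and tests, clock genes, a replicate block and single mice left out. Fabp6-based alternatives were added after the data were seen.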

Additional observations from a re-analysis of the deposited data

Results flagged for a closer look

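Within each group, the gap between an extreme mouse and its nearest neighbour was set against the range of the group for the 10 genes, which gave 6 values standing apart in 20 groups, all in 2 mice. The gaps were taken on FPKM, not on the log2 scale of the tests. The limit used flags about 1 in 20 groups by chance where values are normally distributed. FPKM values spread more widely at the high end, so that rate need not hold here and 6 of 20 cannot be read against it. Of the 6 values, 5 were in vehicle-treated replicate 8. It stood above the other vehicle-treated mice in Apoa1 (196 FPKM), Apoa4 (9.95 FPKM), Apob (22.4 FPKM), Apoc3 (4.28 FPKM) and Mttp (5.63 FPKM). AIMD replicate 6 stood above the other AIMD mice in Mttp (2.18 FPKM). These 2 mice had the highest Fabp6 of their groups. These genes vary together within groups, so the flags are not independent of each other.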

How the results depend on the processing

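Apob and Apobec1 kept direction and call in all 30 alternatives, with each mouse left out giving 1.66 to 1.97 and 0.89 to 1.04. Each mouse left out gave 3555 to 4643 genes called (4320 over all mice), 3 of the 10 genes called higher and 0 lower, and log2 fold changes of 1.51 to 2.14 for Apoa4, 0.92 to 2.09 for Apoa1, 0.17 to 0.63 for Apoc3, -0.34 to -0.05 for Apoc2, 0.04 to 0.20 for Apoe, -0.57 to -0.07 for Mttp, -0.34 to -0.15 for Sar1b and -0.13 to 0.15 for Mogat2, whose sign was unstable. Apoa4 kept 1.66 but lost its call in the rank-sum test and with no filter. Within the first clock set 1882 genes and 5 of the 10 were called, with Apoa1 at 3.08, Apoc3 at 0.93, Apoc2 at 0.17, Mttp at 0.26 and Mogat2 at 0.21. Within the second, 2481 genes were called, with Apoa4 at 1.10 (not called), Apoa1 at -0.38 and Apoc3 at -0.32. Fewer mice enter these fits. Without the 4 mice with high Fabp6, 5 of the 10 were called, with Apoa1 at 3.19, Apoc3 at 0.91, Mttp at 0.21 and Mogat2 at 0.13, and the ratios of Apoa4 to Apoa1 and Apoa4 to Apob turned to -0.72 and 0.63. With log2 Fabp6, centred within groups, as a covariate Apoa1 was called, its difference staying at 1.38 by construction. A pseudocount of 0.1 turned the Apoa4 to Apob ratio to 0.96, and limma voom on recovered reads called 4438 genes and put Apoa4 at 3.94, Apoa1 at 2.45, Apoc3 at 1.19 (the last 2 not called) and Mogat2 at 0.08. A pseudocount of 0.1 put Apoa4 at 2.79 and Apoc3 at 0.81 (not called). The cause was not tested. Ratios with each mouse left out were -0.14 to 0.59 for Apoa4 to Apoa1, -0.27 to 0.17 for Apoa4 to Apob, -0.93 to -0.72 for Apobec1 to Apob, -2.28 to -1.96 for Mttp to Apob, 0.27 to 0.75 for Apoc3 to Apoc2 and -0.44 to -0.19 for Sar1b to Sar1a.

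Replicate numbers name different mice, and same-numbered mice correlated in their deviations at -0.35 to 0.43. With a replicate block, which leaves vehicle-treated replicate 8 without a partner and so without weight, 4652 genes and 4 of the 10 were called, Apoc3 being called at 0.63 and Mogat2 standing at 0.15.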
